A study of Mus musculus with 6 samples.

Results

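The smooth muscle contractile genes Acta2, Actg2, Myh11, Tagln, Des, Cnn1, Myl9, Smtn, Lmod1 and Synpo2 were examined in the proximal colon of mice with and without a gene trap in Mthfd1. Every probe set whose platform annotation gave one of these 10 symbols was taken, which yielded 13 of the 22690 probe sets on the array, and all 10 genes, of 12393 on the array, had at least 1. The heterozygous group held 3 mice of genotype Mthfd1/+, derived from gene-trap mice of BayGenomics, and the wild-type group held 3 mice without the trap. All 6 mice were 8 weeks old and had been fed the AIN-93G control diet for 5 weeks after weaning at 3 weeks. The labels name neither strain, sex nor the site of the trap within Mthfd1. RNA came from the opened and rinsed proximal colon, and the labels name no separation of the muscle coat from the mucosa. Amplified, biotin-labelled RNA of each mouse was hybridised to its own array, and values are scaled linear signals in intensity units.

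Smooth muscle of the gut wall shortens when myosin pulls on actin filaments anchored to dense bodies. Contraction starts when calcium activates myosin light chain kinase, which phosphorylates the regulatory light chain of myosin, and it ends when myosin phosphatase removes that phosphate. Most of the contractile genes are switched on in muscle cells by serum response factor (SRF) with its cofactor myocardin, through a sequence called the CArG box. In the colon these genes are expressed in the circular and longitudinal muscle coats, in the thin muscle layer under the mucosa and in vessel walls, and their signal in whole tissue is used as a reading of the muscle in a sample. In such bulk RNA, fewer muscle cells and less RNA per muscle cell cannot be told apart.

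The start regions of 3 members are shown because, of the members with a window, only these held CArG-like letters. RefSeq windows of 300 bases (GRCm38.p6), from 250 bases before to 50 after the start used in the window table, were matched by symbol for 7 of the 10 members, and Actg2, Myh11 and Tagln had no entry. Capitals mark each match to the 10-letter CArG box, read on both strands, with at most 1 letter different.

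Acta2, chr19:34255324-34255623, minus strand: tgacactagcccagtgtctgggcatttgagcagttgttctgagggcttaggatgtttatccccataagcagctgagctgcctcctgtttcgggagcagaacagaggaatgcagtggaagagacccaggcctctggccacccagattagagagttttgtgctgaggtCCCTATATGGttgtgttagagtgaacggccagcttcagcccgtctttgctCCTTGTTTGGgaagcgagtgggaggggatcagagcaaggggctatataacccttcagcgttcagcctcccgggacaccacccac
Myl9, chr2:156775214-156775513, plus strand: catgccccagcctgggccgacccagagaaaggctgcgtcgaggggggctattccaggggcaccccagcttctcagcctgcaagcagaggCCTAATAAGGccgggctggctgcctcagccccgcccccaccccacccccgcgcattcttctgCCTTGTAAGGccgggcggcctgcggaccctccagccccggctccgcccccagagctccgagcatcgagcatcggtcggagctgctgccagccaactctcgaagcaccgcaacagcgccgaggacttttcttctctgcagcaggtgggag
Lmod1, chr1:135324563-135324862, plus strand: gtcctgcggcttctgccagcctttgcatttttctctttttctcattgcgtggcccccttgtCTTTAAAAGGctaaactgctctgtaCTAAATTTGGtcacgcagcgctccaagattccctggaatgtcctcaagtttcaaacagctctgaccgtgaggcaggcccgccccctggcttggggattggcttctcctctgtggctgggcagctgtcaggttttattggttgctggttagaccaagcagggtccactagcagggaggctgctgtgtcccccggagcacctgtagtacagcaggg

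Positions count back from that start, which need not be a gene's outermost annotated one. Myl9 held 1 exact CArG box, which begins 161 bases before the start, and a match with 1 letter different 99 bases before it. Acta2 held matches with 1 letter different at 84 and 34 bases before its start, and Lmod1 at 189 and 164 bases. The outermost start in the RefSeq gene table lay 212 bases further upstream for Acta2, so that both Acta2 matches fall after it, 56 bases further upstream for Myl9, and at the same base for Lmod1. An exact box was present in 1 of the 7 member windows and in 1.81% of the 27025 genes with a window, and a match with at most 1 different letter in 3 of 7 and in 23.8%. Of 19 listed epithelial genes with a window, 1 held an exact box and 6 a match with at most 1 different letter. The windows of Cnn1, Des, Smtn and Synpo2 held neither in these 300 bases.

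The labels were first checked on Mthfd1 and on marker genes. The brightest Mthfd1 probe set read 453.1, 509.6 and 549.4 in the heterozygous arrays, against 949.9, 838.6 and 881.4 in the wild-type arrays. All 3 Mthfd1 probe sets had groups that did not overlap. The dimmest, at 31.8 to 59.7, was below the filter on dim probe sets and not tested, and the others did not pass over all tested probe sets (smallest limma adjusted p = 0.108). Of the members, 9 of 10 passed the filter on dim probe sets, whereas 10 of 13 skeletal and heart muscle markers were below it. Myh4, a fast skeletal myosin, read 1.8 to 39.8 and Tnnt3, fast skeletal troponin T, 1.8 to 6.8 over the 6 arrays. Acta1, Actc1 and Ckm, genes of striated muscle actins and creatine kinase, were above the filter. Median intensity ran from 156.9 to 168.2 over the arrays, with wild-type replicate 3 the highest, and control probe sets for Gapdh gave a 3'-over-5' ratio of 0.655 to 0.727, those for Actb 1.44 to 1.61. The Actb ratio was also highest in wild-type replicate 3, and its part in the members' values was not tested.

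The contractile genes varied widely from mouse to mouse within both genotypes. Wild-type replicate 3 held the highest signal of 6 of the 9 tested members, and heterozygous replicate 1 held that of the other 3. The lowest signal fell in heterozygous replicate 2 for 4 members, in wild-type replicate 2 for 4 and in wild-type replicate 1 for Lmod1. Each genotype thus contained a colon high and a colon low in these genes. The low colons both bore replicate number 2, and the deviations of those arrays were correlated over all tested probe sets (0.493). What they shared was not tested.

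Among the filament actins, Acta2, the smooth muscle alpha-actin, read 14765.4, 13094.3 and 14330.7 in the heterozygous arrays, against 14208.3, 12335.2 and 14411.2 in the wild-type arrays. Acta2 spanned a log2 range of 0.26 over the 6 arrays, and the groups overlapped (log2 difference 0.04, SE 0.08). Actg2, the gamma-actin typical of visceral muscle, read 9022.2, 6369.1 and 6392.4 in the heterozygous arrays, against 8496.8, 7402.6 and 10933.4 in the wild-type arrays. Actg2 averaged 7261 ± 1525 in heterozygous and 8944 ± 1807 in wild-type colon (SD, n = 3 each). Heterozygous replicates 2 and 3 lay under all wild-type arrays, and heterozygous replicate 1 lay between them (log2 difference -0.30, SE 0.17). A second Acta2 probe set, below the filter, read 73.3 to 101.9 in the heterozygous arrays and 52.2 to 89.9 in the wild-type arrays.

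Among the genes of the myosin motor, Myh11, the smooth muscle myosin heavy chain, read 5717.8, 4899.4 and 5004.7 in the heterozygous arrays, against 4575.5, 4380.4 and 6316.4 in the wild-type arrays. Wild-type replicate 3 was the highest and the other wild-type arrays the lowest, so the groups overlapped (log2 difference 0.05, SE 0.14). The dimmer Myh11 probe set had a log2 difference of -0.06 (SE 0.24) and was highest in wild-type replicate 3 as well, at 480.2. Myl9, the regulatory light chain whose phosphorylation starts contraction, read 11775.3, 8673.3 and 9894.1 in the heterozygous arrays, against 9298.3, 8213.5 and 11329.6 in the wild-type arrays. Its highest array was heterozygous replicate 1 (log2 difference 0.07, SE 0.14).

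Among the actin-binding genes, Tagln, whose product transgelin (SM22) stabilises actin bundles, read 9720, 7513.4 and 8145 in the heterozygous arrays, against 8667.5, 7586.7 and 10684.9 in the wild-type arrays. The ranges covered each other (log2 difference -0.08, SE 0.13). Cnn1, calponin, an inhibitor of myosin's ATPase on thin filaments, read 3812.2, 2755.8 and 3582.3 in the heterozygous arrays, against 3712.6, 3391.5 and 6033.7 in the wild-type arrays. Wild-type replicate 3 stood well above the other 5 arrays, which lay between 2755.8 and 3812.2 (log2 difference -0.34, SE 0.21). Smtn, smoothelin, an actin-associated protein of contractile muscle, read 1104.3, 746.7 and 1084.4 in the heterozygous arrays, against 709.4, 677.9 and 1046.3 in the wild-type arrays. Smtn averaged 978 ± 201 in heterozygous and 811 ± 204 in wild-type colon (SD, n = 3 each). It was high in heterozygous replicates 1 and 3 and in wild-type replicate 3 (log2 difference 0.27, SE 0.20). Lmod1, leiomodin, which nucleates actin filaments, was dim, with 168.3, 133.7 and 205.5 in the heterozygous arrays, against 125.1, 173.9 and 216 in the wild-type arrays (log2 difference -0.01, SE 0.22).

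Des, desmin, the intermediate filament protein that links the dense bodies of muscle cells, read 1941.3, 1343.8 and 1508.5 in the heterozygous arrays, against 1851.5, 1698.1 and 2903.4 in the wild-type arrays. Des averaged 1598 ± 309 in heterozygous and 2151 ± 656 in wild-type colon (SD, n = 3 each). It had the largest difference of the 9 tested members (log2 difference -0.40, SE 0.21), with wild-type replicate 3 far above the rest. Its dimmer probe set, below the filter, read 90.3, 55.4 and 59.8 in the heterozygous arrays, against 88.3, 100.4 and 103.6 in the wild-type arrays, where heterozygous replicate 1 lay within the wild-type range. Synpo2, synaptopodin 2, an actin-binding protein of muscle, was measured by 1 probe set below the filter, at 10.8, 49.8 and 24.5 in the heterozygous arrays, against 27, 34.8 and 99.3 in the wild-type arrays, and was not tested. The plot of signal by array sets the 9 tested members side by side.

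**Figure D1:**
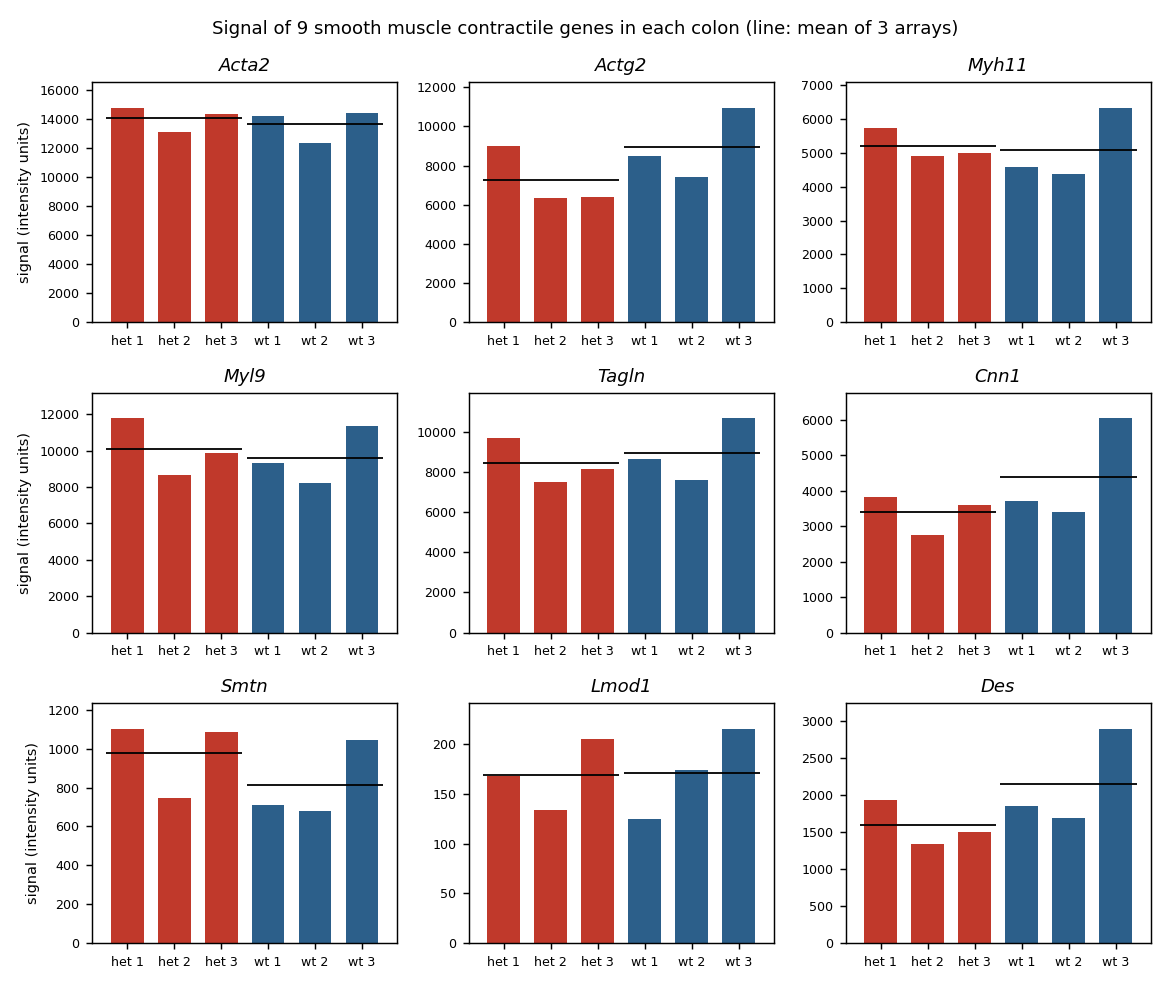
Signal in intensity units (vertical axis, from 0) of 9 contractile genes in each of the 3 heterozygous (het, red) and 3 wild-type (wt, blue) colons, 1 bar per array, with a line at each group's mean. Wild-type replicate 3 or heterozygous replicate 1 is the highest bar in every panel, and Acta2 varies least.

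No contractile gene passed the test between the genotypes. Of the 10 member probe sets above the filter, 0 had an adjusted p under 0.05 in limma and 0 had an unadjusted p under 0.05, where 0% of all 13576 tested probe sets passed the first and 5.69% the second, and 5.4% of tested genes. The smallest adjusted p among members in limma was that of Des (adjusted p = 0.908), followed by Actg2 (adjusted p = 0.910) and Cnn1 (adjusted p = 0.916). With 1 array left out the count at an unadjusted p under 0.05 in limma moved. It was 3 without wild-type replicate 2 (Des, Actg2 and Cnn1, lower in heterozygous colon), 2 without heterozygous replicate 1 (Actg2 and Des, lower) and 1 without wild-type replicate 3 (Smtn, higher), and 0 had an adjusted p under 0.05 in any of these fits. The groups of arrays overlapped for all 9 tested members, whereas 10.7% of tested genes had groups that did not overlap. The log2 difference was positive for 4 of the 9 members and negative for 5, against 51.6% positive and 48.4% negative over all tested genes, with a median of -0.01 beside 0.01 over all tested genes. The median size of the difference, sign ignored, was 0.08 for the members and 0.11 over all tested genes.

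The intervals show what 3 arrays per genotype left undecided. The 95% interval of the log2 difference was -0.13 to 0.22 for Acta2, -0.38 to 0.22 for Tagln and -0.26 to 0.36 for Myh11. It was -0.87 to 0.07 for Des, -0.81 to 0.14 for Cnn1 and -0.68 to 0.08 for Actg2. Those of Smtn (-0.19 to 0.73) and Lmod1 (-0.51 to 0.49) were as wide. Without wild-type replicate 3 the difference of Des was -0.17, that of Actg2 -0.15 and that of Cnn1 -0.08, and without heterozygous replicate 1 they were -0.55, -0.47 and -0.43. Smtn was 0.47 without wild-type replicate 3.

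**Figure D2:**
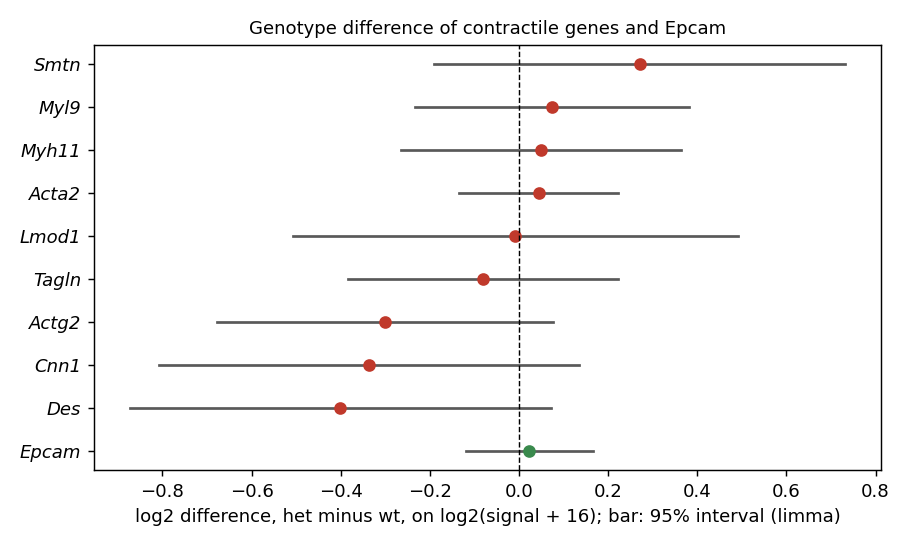
Log2 difference of heterozygous minus wild-type colon (horizontal axis, on log2(signal + 16)) for 9 contractile genes and Epcam, with 95% intervals from limma over 3 arrays per genotype. Every interval includes 0, and Des, Cnn1 and Actg2 lie furthest to the left.

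The spread of the members across the 6 mice was wide for the array. The median SD of log2 signal was 0.29 for the 9 members, against 0.18 over all tested genes, and 8 of the 9 lay above that median. Des (SD 0.38), Cnn1 (0.37), Smtn (0.33), Actg2 (0.30) and Lmod1 (0.29) stood between the 82.9th and 92.9th percentiles of all tested genes. Myl9, Tagln and Myh11 were nearer the middle, with SDs of 0.21, 0.20 and 0.20, and Acta2 (SD 0.10) was at the 12.9th percentile. Acta2 was brighter than 99.6% of tested genes and no saturation values are at hand. The part of brightness in its spread was not tested. Within genotypes the median SD was 0.29 for the members and 0.17 for all tested genes. Over the 5 arrays without wild-type replicate 3 the median was 0.20 for the members and 0.17 for all tested genes.

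The members varied together from mouse to mouse. Among the 36 pairs of tested members, all had a positive correlation of log2 signal over the 6 arrays, with a median r of 0.68 and a range of 0.24 to 0.97, whereas 50.9% of all pairs of tested genes were positive, with a median r of 0.01. These pairs share arrays and genes, and the values are a description. Tagln followed the mean of the other members most closely (r = 0.95), before Cnn1 (0.90) and Myh11 (0.88), and Lmod1 least (0.58). The Acta2, Myl9 and Lmod1 start regions printed above belong to members with r of 0.67, 0.87 and 0.58. Cnn1, Des and Smtn, whose windows held no match, had r of 0.90, 0.85 and 0.67. Centring within genotype left 36 positive pairs, and leaving out wild-type replicate 3 left 34.

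A contractile level was formed as the mean of the 9 centred log2 signals. It was 0.15, -0.25 and -0.01 in the heterozygous arrays and -0.08, -0.17 and 0.36 in the wild-type arrays, a span of 0.61, or 1.53-fold, between the extremes. The group means were -0.04 ± 0.20 in heterozygous and 0.04 ± 0.29 in wild-type colon (SD, n = 3 each), so the genotypes differed by less than the spread within either.

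The epithelium of the mucosa forms the other large part of such a sample, and Epcam, an epithelial cell adhesion molecule, was set against the members. Epcam read 13040.9, 12802.5 and 13803.7 in the heterozygous arrays, against 12800.2, 13634.2 and 12578.7 in the wild-type arrays. It spanned only 1.10-fold, and its SD of 0.05 was at the 1.76th percentile of tested genes. Epcam is a bright gene, where the highest signal on any array was 21905.1, and no saturation values are at hand. Wild-type replicate 3, highest in the contractile genes, was the lowest in Epcam, but heterozygous replicate 2, lowest in them, was not the highest in Epcam. Over the 6 arrays, 7 of the 9 members had a negative correlation with Epcam and 0 of the 9 passed an adjusted p of 0.05. Actg2 was the most negative (Pearson r = -0.61, exact permutation p = 0.229, adjusted over the 9 relations 0.634; Spearman rho = -0.54, exact permutation p = 0.297, adjusted 0.800). Lmod1 (r = 0.33, rho = 0.14) and Smtn (r = 0.03, rho = 0.14) were positive. Without heterozygous replicate 3 and wild-type replicate 2, the arrays farthest from the median of Epcam, 6 of the 9 were negative, and Actg2 had r = -0.34. Without heterozygous replicate 2, 8 of the 9 were negative and the relation was closer for Actg2 (r = -0.93) and Des (r = -0.85, exact permutation p = 0.025 for each, adjusted 0.113). Without wild-type replicate 3, Des had r = -0.11 and Actg2 -0.38. With 3 arrays per genotype no correlation within a genotype can be given.

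Opposition was plainer against the epithelial genes as a list. The mean of 23 centred epithelial genes was -0.10, 0.01 and 0.05 in the heterozygous arrays and 0.05, 0.16 and -0.16 in the wild-type arrays, so wild-type replicate 3 and heterozygous replicate 1, high in contractile signal, were the lowest in epithelial signal. All 9 members had a negative correlation with that mean. Myh11 was the most negative (Pearson r = -0.96, exact permutation p = 0.00556, adjusted over the 9 relations 0.05, which does not fall under the threshold; Spearman rho = -0.83, exact permutation p = 0.0583, adjusted 0.311). Tagln (r = -0.87) and Myl9 (r = -0.88) had an adjusted exact permutation p of 0.1, and the remaining 6 lay between -0.72 and -0.32. Without heterozygous replicate 1 and wild-type replicate 3, the arrays farthest from the median, only 5 of 9 were negative, with Myh11 at -0.80 and Des at 0.54, so the opposition of Des, Cnn1, Actg2 and Lmod1 rests on those arrays. Each array carried the same trimmed mean of 500, and the part of that scaling in the opposition was not tested.

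Single epithelial genes followed the list unevenly. Of 23 epithelial genes, 20 had a negative correlation with the contractile level (median r = -0.62), against 43.3% of all tested genes that are not members, whose median r was 0.11. Tspan8, an epithelial tetraspanin, had r = -0.94, Vil1, the microvillus protein villin, -0.93, and Krt20, a keratin of differentiated enterocytes, -0.92. Krt20 read 5268.5, 7570.6 and 7726.7 in the heterozygous arrays, against 7826.3, 7996.6 and 4396.2 in the wild-type arrays, with its lowest values in wild-type replicate 3 and heterozygous replicate 1. Krt18 (r = 0.68), Spint2 (0.81) and Prss8 (0.65) ran the other way, and were the only 3 of the list to do so, Spint2 being named after its value was seen. Without wild-type replicate 3 the count of negative genes was 15 of 23. Between the genotypes, 2 of the 23 had an unadjusted p under 0.05 in limma, against 5.4% of tested genes. These were Krt18 (log2 difference -0.26, limma adjusted p = 0.752) and Prss8 (-0.39, limma adjusted p = 0.817), both lower in heterozygous colon. Groups did not overlap for these 2 and for Elf3, higher there, or 3 of 23, against 10.7% of tested genes. The plot of centred signals by array shows both lists.

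**Figure D3:**
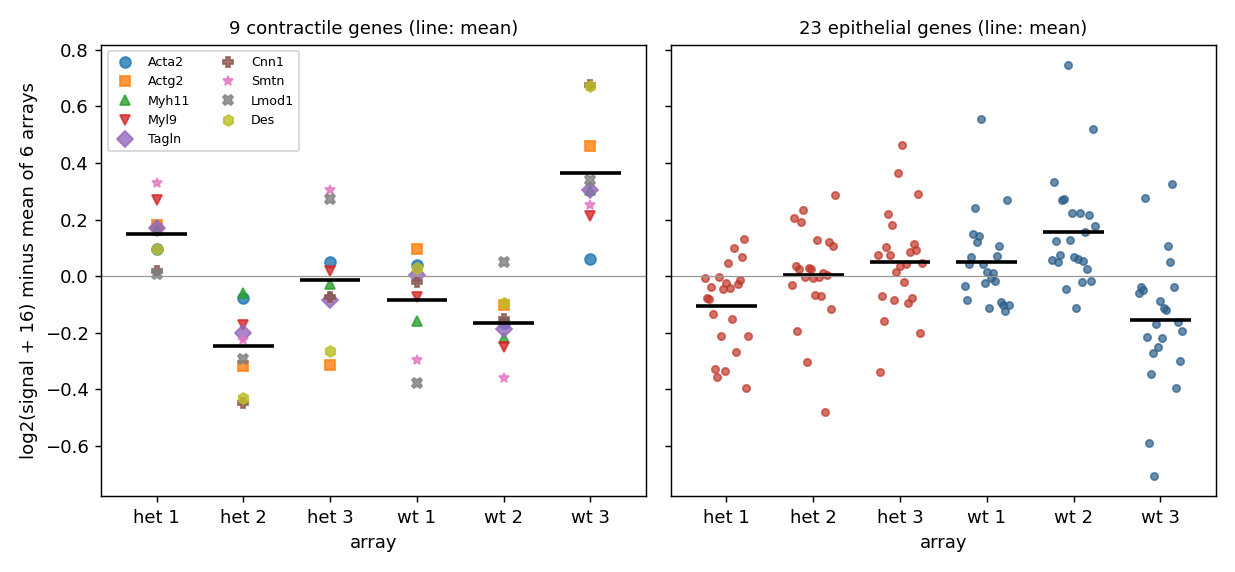
Log2(signal + 16) minus each gene's mean over the 6 arrays (vertical axis) for 9 contractile genes (left) and 23 epithelial genes (right), 1 point per gene and array, heterozygous (het) arrays left of wild-type (wt) arrays, with a line at the mean of the genes. The contractile mean is highest in wild-type replicate 3 (0.36) and heterozygous replicate 1 (0.15), where the epithelial mean is lowest (-0.16 and -0.10).

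Other genes of the contractile machinery moved with the members. All 14 tested thin-filament and dense-body partners had a positive correlation with the contractile level (median r = 0.89). Without wild-type replicate 3 it was positive for 13 of the 14 (median r = 0.74). Tropomyosins Tpm2 (r = 0.98) and Tpm1 (0.98), which wrap around actin, were the closest, with Pdlim3, an actinin-associated protein (0.97). Tpm2 read 10792, 9711.2 and 10163 in the heterozygous arrays, against 10016, 9609.3 and 11608 in the wild-type arrays, highest in wild-type replicate 3 and next in heterozygous replicate 1. None of the 14 had an unadjusted p under 0.05 in limma between the genotypes, and their log2 differences were above 0 for 5 and below 0 for 9 (median -0.07). Fhl1, a muscle LIM protein, had the smallest p of them (log2 difference -0.23, limma adjusted p = 0.908).

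Of 9 listed transcription factors of the muscle programme, 6 were tested, and Myocd, the gene of myocardin, was below the filter. Among the 6, Srf itself was closest to the contractile level (r = 0.91), followed by Mef2c (0.86) and Foxf1 (0.81). Srf read 551.5, 384.5 and 436.1 in the heterozygous arrays, against 504.4, 459.2 and 623.7 in the wild-type arrays (log2 difference -0.21, SE 0.17, limma adjusted p = 0.928). The SRF cofactor gene Mrtfa had r = -0.19. It was the 1 gene of the 6 whose groups did not overlap, against 10.7% of tested genes. It was lower in heterozygous colon (log2 difference -0.09, limma adjusted p = 0.963). Of the 6 tested calcium, potassium and cGMP genes, 5 had a positive correlation (median r = 0.60) and Atp2a2, a calcium pump of the sarcoplasmic reticulum, had r = -0.33. In that list Pln, phospholamban, a brake on the calcium pump (r = 0.92), and Gucy1b1, a subunit of the nitric oxide receptor (0.83), were the closest. Pln was far above the rest in wild-type replicate 3, at 760.2, with 264.6 to 475.1 in the other 5 arrays. Among 9 tested membrane and dystrophin-complex genes, 8 had a positive correlation (median r = 0.60). Cavin1, a coat protein of caveolae, had r = 0.96 and Dmd, dystrophin, 0.88, whereas Cav1, caveolin 1, had 0.14 and Itga7, a laminin-binding integrin subunit, -0.64. Over these 3 lists, 0 genes had an unadjusted p under 0.05 between the genotypes.

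Markers of other cells of the wall were set beside the members, since whole tissue holds them too. All 9 tested enteric neuron genes had a positive correlation with the contractile level (median r = 0.71), with Vip, a relaxing neuropeptide, at 0.87, and all 4 tested markers of interstitial cells of Cajal, the pacemaker cells of the muscle coat, did so, with Kit at 0.92. Of 11 fibroblast genes 9 were positive (median r = 0.87), with the matrix genes Dpt at 0.99 and Fbln1 at 0.98. Pericyte genes were positive for 5 of 7 (median r = 0.36) and endothelial genes for 3 of 8 (median r = -0.27). All 5 tested adipocyte genes had a negative correlation (median r = -0.75). Fabp4, a fatty acid carrier of fat cells, read 7006.6, 9073.4 and 7923.8 in the heterozygous arrays, against 9093.3, 9795 and 6015.7 in the wild-type arrays, lowest in wild-type replicate 3 and heterozygous replicate 1. Of 3 tested blood and leukocyte genes, 2 were positive (median r = 0.06), and 2 had groups that did not overlap between the genotypes, against 10.7% of tested genes. Ptprc, the leukocyte surface phosphatase CD45, read 888.4, 1173.4 and 1394.7 in the heterozygous arrays, against 507.8, 550.2 and 831.2 in the wild-type arrays (log2 difference 0.86, SE 0.22), with a limma adjusted p of 0.603. Csf1r, a receptor of macrophages, read 1388.3, 1663.7 and 1714.8 in the heterozygous arrays, against 1193, 1386.4 and 1364.9 in the wild-type arrays (log2 difference 0.27, limma adjusted p = 0.885). The groups overlapped for Cd68, a macrophage protein, which was lower in heterozygous colon (log2 difference -0.13). Groups were also apart for 3 of 23 epithelial, 1 of 7 pericyte, 1 of 8 endothelial and 1 of 6 muscle transcription factor genes. Both tested glial genes were positive, at 0.04 for Sox10 and 0.43 for Cryab. These correlations span 6 arrays that share 1 scaling, carry no test, and were not recomputed without wild-type replicate 3. The part of these cells in the members' values was not tested.

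**Figure D4:**
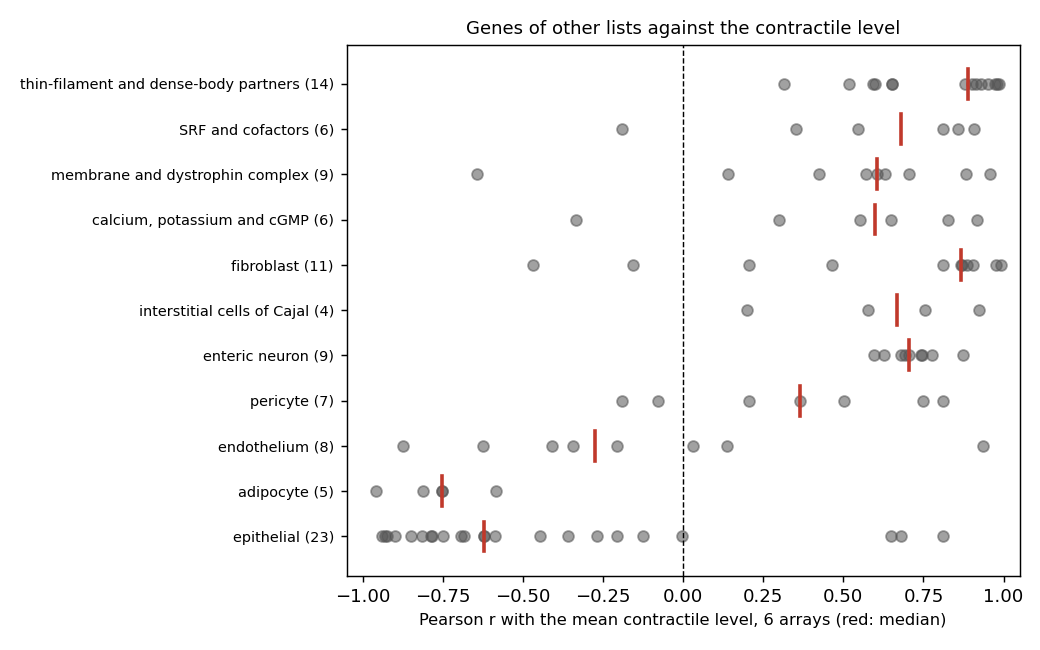
Pearson r of single genes with the mean contractile level over 6 arrays (horizontal axis, 1 point per gene), for gene lists with the number of tested genes in brackets and a red line at each list's median. Thin-filament partners (median 0.89) and fibroblast genes (0.87) lie to the right, and adipocyte (-0.75) and epithelial genes (-0.62) to the left.

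Over all genes, those most like the contractile level were sought among 4112 genes with an SD above the median of tested genes. Over the 6 arrays, 145 had r above 0.9 and 60 had r below -0.9. The 6 most alike were Nfic (r = 0.99), Stmn3 (0.99), Osgin2 (0.99), Nxn (0.99), Ntmt1 (0.98) and Acsm3 (0.98). The 6 most opposed were Acaa1a (-0.99), Fabp2 (-0.99), Il10rb (-0.98), Gsdme (-0.98), Fabp6 (-0.97) and Emp1 (-0.97). Fabp2, the fatty acid carrier of enterocytes, read 9142, 13529 and 10791 in the heterozygous arrays, against 12261, 13256 and 7713.7 in the wild-type arrays. Fabp6, the bile acid carrier typical of the ileum, read 382.3, 5621.6 and 727.8 in the heterozygous arrays, against 1316.8, 5661.9 and 93.5 in the wild-type arrays. Both enterocyte genes were lowest in wild-type replicate 3 and next lowest in heterozygous replicate 1.

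The members also differed in how they stood to each other within a colon. For each pair of members the difference of their centred log2 signals was taken within each array, where the scaling of the array cancels. The 3 heterozygous arrays did not overlap the 3 wild-type arrays in 14 of the 36 member pairs, or 38.9%, against 11.4% of all pairs of tested genes. These pairs share genes, so they are not 14 separate observations, and the part of the members' correlation in that share was not tested. Smtn, Myl9 and Myh11 were higher relative to Des, Cnn1 and Actg2 in heterozygous colon in all 9 pairs between those genes, and 0 of the 6 pairs within either trio were apart. The trios were chosen after their values were seen, so the values carry no test.

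Smtn minus Des was 0.23, 0.21 and 0.57 in the heterozygous arrays, against -0.32, -0.27 and -0.42 in the wild-type arrays, a difference of 0.67. Smtn minus Cnn1 was 0.31, 0.22 and 0.38 in the heterozygous arrays, against -0.28, -0.21 and -0.42 in the wild-type arrays. Every heterozygous colon thus had more smoothelin signal for its desmin and calponin signal than every wild-type colon, wild-type replicate 3 and heterozygous replicate 2 included. Myl9 minus Actg2 was 0.09, 0.15 and 0.33 in the heterozygous arrays, against -0.17, -0.15 and -0.25 in the wild-type arrays. Over the 9 pairs the difference between the genotypes ran from 0.35 (Myh11 minus Actg2) to 0.67 on the log2 scale. The other 5 pairs that were apart were Smtn and Myl9 over Tagln, Tagln over Des and Actg2, and Acta2 over Cnn1.

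The dimmer probe sets of Myh11 and Des offered a second reading of 1 of these pairs. Their centred difference was 0.06, 0.09 and 0.43 in the heterozygous arrays, against -0.38, -0.46 and 0.27 in the wild-type arrays. Wild-type replicate 3 lay within the heterozygous range there, so the separation did not repeat with the dimmer probe set of both genes. With the dimmer probe set of Myh11 alone, or narrowly with that of Des alone, the heterozygous arrays still lay above the wild-type arrays. That Des probe set was below the filter on dim signals.

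**Figure D5:**
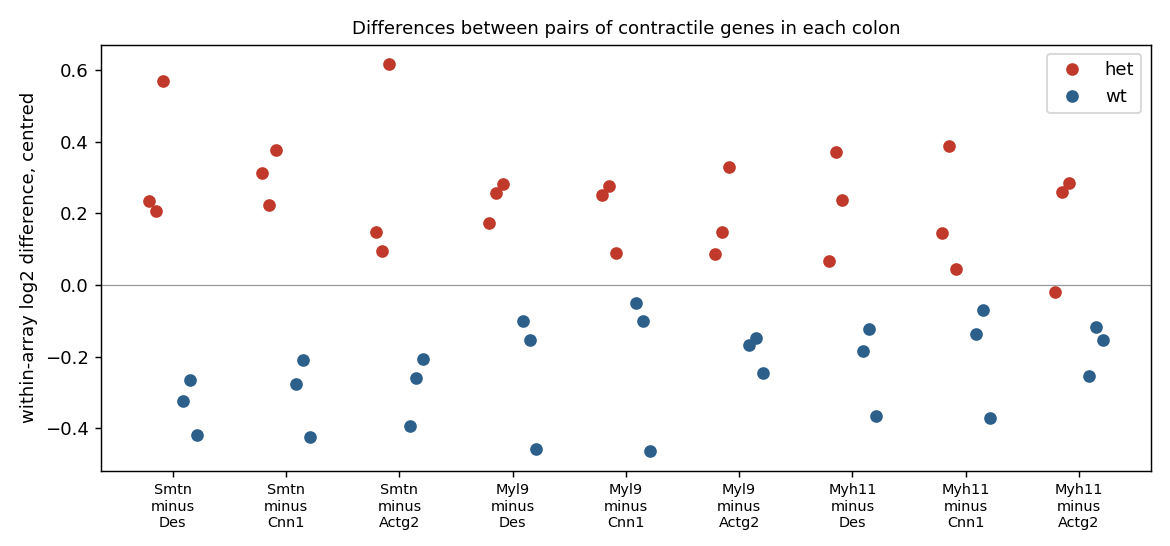
Within-array difference of centred log2 signal (vertical axis) for 9 pairs of contractile genes, 1 point per colon, heterozygous (het, red) left of wild-type (wt, blue). In each pair all 3 heterozygous points lie above all 3 wild-type points.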

How the data were processed

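Intensities of 6 arrays were used as deposited, 1 value per probe set and array. Per the submitters' processing notes the software was GCOS, the array maker's program (version: not given in the sources used here). These deposited intensities had a mean of 500 on each array after 2% of probe sets were trimmed at either end, so the arrays share 1 scale. The files carry no detection or saturation values, and 3 arrays per genotype limit the precision.

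After 64 control probe sets were left out, 20380 of the rest had 1 gene symbol, 691 several and 1555 none in the platform's annotation, and symbols were checked against the GRCm38.p6 gene table. Values entered as log2(signal + 16), which understates changes of dim genes. Only probe sets whose mean reached the 40th percentile were tested, that is 13576 probe sets and 8241 genes, 9 of the 10 members among them. A gene is its brightest tested probe set with 1 symbol. For het against wild type, limma 3.58.1 (R 4.3.3) gave moderated two-sided tests with an intensity trend in eBayes, adjusted by Benjamini-Hochberg over all tested probe sets at 0.05, a step tested on simulated data. The members' correlations used a two-sided exact permutation test over all orders of the 6 arrays, for which 0.00139 is the smallest p. The arrays numbered replicate 2 deviated together in part (correlation 0.493), and those of the other replicate numbers did not (-0.124 and 0.042). Arrays were not paired in the main test, and the replicate number entered as a block only among the alternatives. What the replicate 2 arrays shared was not tested.

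Named are all members, Mthfd1, Epcam, up to 3 genes per list by p and 3 by correlation with the contractile level, and the 6 genes most and least like it. Others are named as defining markers. The result of 1 gene list is not reported here. The members, lists and rules were chosen with earlier results of these data known. Alternatives covered normalization, pseudocount, filter, variance model, array weights, the replicate number as a block and each array left out. The settings for the pairs and for the lists were added after seeing the data.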

Additional observations from a re-analysis of the deposited data

How the results depend on the processing

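No member passed the threshold under any of the 17 alternatives, and the median log2 difference of the members ran from -0.10 to 0.09 over the leave-one-out fits. Of 152 member differences recomputed, 138 kept their sign. Lmod1 turned to 0.005381 with quantile normalization and 0.005873 with median centring, and Myh11 to -0.007732 with the mean of its tested probe sets. With each array left out, the log2 difference ran from -0.02684 to 0.09498 for Acta2, -0.0493 to 0.2139 for Myh11, -0.0407 to 0.1991 for Myl9, -0.1992 to 0.1595 for Lmod1 and -0.1941 to 0.05248 for Tagln. Those of Actg2, Cnn1 and Des stayed negative and that of Smtn positive. Lmod1 had no value under the stricter filter. With the replicate number as a block the differences could not move, since each number holds 1 array of each genotype. The smallest adjusted member p in limma was then 0.741 (Cnn1). For Epcam, 88 of 99 correlations kept their sign. Smtn turned to -0.0379 with quantile normalization, -0.213 with median centring, -0.0913 centred within genotype and -0.705 against the epithelial mean, and Lmod1 to -0.158 with median centring and -0.318 against the epithelial mean. With each array left out, r ran from -0.429 to 0.431 for Smtn, -0.677 to 0.216 for Acta2 and -0.729 to 0.246 for Cnn1, and 6 to 8 members were negative, and with median centring all 9. The causes were not tested. Over all 13576 probe sets, 0 calls as reported became 39 without heterozygous replicate 1, 8 with a robust variance model, 4 with array weights, and 2 each without wild-type replicate 3 and with median centring. Over 8241 genes there were 5 calls with the mean of a gene's probe sets and 2 with 1 test per gene, and 0 calls under any of these settings were members. Among settings chosen after seeing the data, the pairs that did not overlap numbered 13 with quantile normalization (36.1% against 11.5% of all pairs) and 14 with a pseudocount of 1. They numbered 16 to 18 with each array left out (44.4% to 50% against 17.4% to 25.5%). Depth is not defined for arrays, and 3 arrays per genotype set the width of every interval.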
